A study of Mus musculus with 12 samples.

Results

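The comparison of AOM/DSS-treated swimming mice (Model_Swim) with untreated mice that did not swim (Ctrl) shows how far the colorectal tissue of swimmers still lay from the untreated state. It rests on 6 of the 12 sequenced libraries, 3 of Model_Swim and 3 of Ctrl, chosen by their labels. All mice were male C57BL/6, 4 weeks old when bought, and each library holds RNA of the colorectal tissue of 1 mouse. Model_Swim mice were injected with azoxymethane (AOM), a carcinogen that alkylates DNA, and then drank dextran sulfate sodium (DSS), which injures the colon lining, in 3 cycles. They were trained to swim from before the injection until the end of the study. Ctrl mice received neither agent, drank ordinary water and did not swim. The groups compared thus differ in AOM/DSS and in swimming together, and what belongs to either cannot be told apart from these 6 mice alone. The Ctrl_Swim mice (swimming, no AOM/DSS) and the Model mice (AOM/DSS, no swimming), 3 of each, serve below as reference points. Tumour and surrounding mucosa were not separated in the labels, and in bulk tissue more cells of a type and more RNA per cell cannot be told apart.

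In AOM/DSS colitis, damaged epithelium and resident immune cells release interleukin 1 and CXC chemokines that call in neutrophils and monocytes. Fibroblasts and epithelium at wound edges make matrix metalloproteinases and growth factors that rebuild the mucosa. The tumours of this model usually carry an active Wnt pathway, whose target genes include secreted inhibitors of Wnt itself. The healthy crypt base and surface, in turn, make antimicrobial proteins and mucus that keep bacteria away.

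Total counts of the 12 libraries lay between 17256953 and 19451055, and each pair of replicates differed by more than counting noise. Nothing in the labels reports batches. Reads of 10 pancreatic enzyme genes, which reached at least 1000 CPM (counts scaled for library size) in Model 1 and Model 3, were present as traces in the other libraries and divided them. The traces were at or above 0.0838% of the level in Model 1 and Model 3 in all 3 Ctrl libraries, Ctrl_Swim 3 and Model 2, and at or below 0.0101% in all 3 Model_Swim libraries, Ctrl_Swim 2 and Ctrl_Swim 4. This division coincides with the groups compared here, so that within these 6 libraries the cause of the traces and the groups cannot be told apart. With a term for it, 2 genes, Grem1 and Vcan, passed the cutoffs given next (log2 fold changes of 1.84 and 1.09, adjusted p of 0.00896 and 0.048). Only the Ctrl_Swim group has libraries on both sides, so the term rests on Ctrl_Swim 3 against Ctrl_Swim 2 and 4. A call kept or lost with the trace term thus hangs on 1 library and decides little. Markers of squamous epithelium, which lines the anal canal, were also higher in Model_Swim, and fits with their level as a covariate are given below for the larger groups of genes.

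A gene was called when its adjusted p was under 0.05 and its fold change over 2 or under 0.5. By this rule, 352 of 15484 genes tested were called in Model_Swim vs Ctrl. Of these, 301 were higher in Model_Swim (1.94% of the genes tested) and 51 were lower (0.329%). All 3 Model_Swim mice lay above all 3 Ctrl mice in 298 of the 301, and below them in 48 of the 51. The same held above for 22.5% and below for 24.1% of all genes tested. Past the adjusted p alone, the numbers of higher (1112 genes, 7.18%) and lower genes (1228 genes, 7.93%) were nearly even. The excess of higher genes was thus found among large changes. In both directions, most genes past the adjusted p had moved by less than 2-fold.

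Of 40 gene lists that describe cell types and pathways, 23 had 1 or more genes called, with 69 different genes higher and 9 lower. The most called genes were in the lists of neutrophils (9 of 14 tested) and of cytokines and chemokines of colitis (9 of 18), followed by Wnt targets (7 of 24), fibroblasts and matrix (7 of 28), squamous epithelium (6 of 20), macrophages (5 of 17) and repair epithelium (5 of 20, with 2 lower). The median log2 fold change of all genes tested was -0.00128. Against it, the list medians were 4.01 for neutrophils, 2.49 for cytokines and chemokines, 0.85 for Wnt targets, 0.62 for fibroblasts and matrix, 0.69 for macrophages and 0.92 for repair epithelium. The medians farthest from 0 were those of squamous epithelium (5.08), neutrophils and pancreatic acinar cells (-3.27), the last of which carry the trace division.

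**Figure D1:**
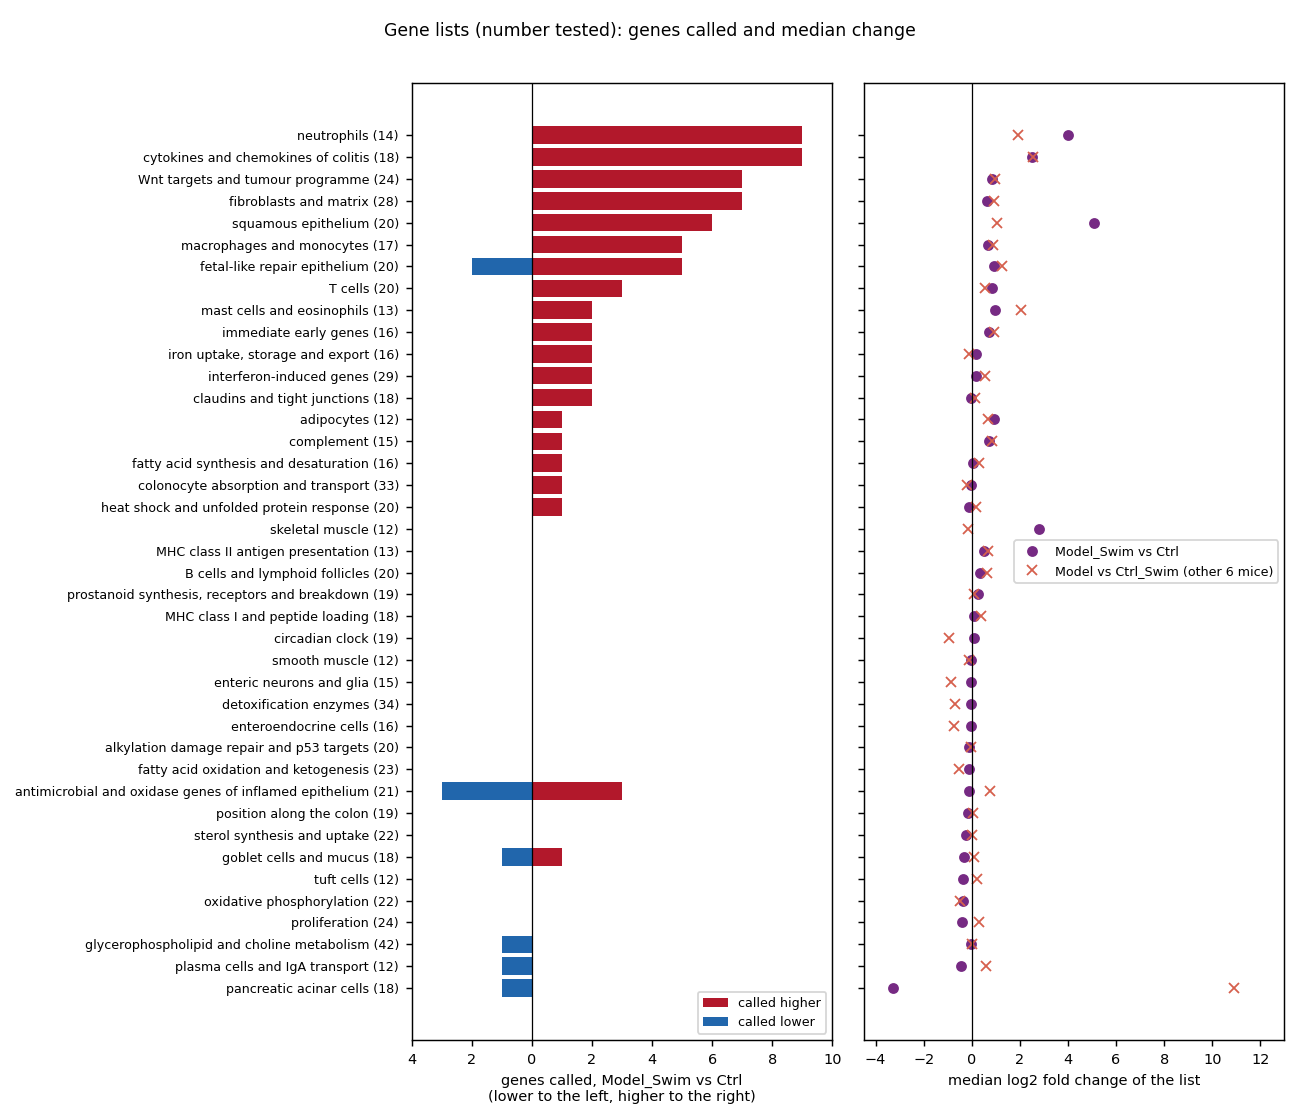
Bars on the left give the number of genes of each list called higher (red, to the right) or lower (blue, to the left) in Model_Swim vs Ctrl, with the number tested in brackets. Points on the right give the median log2 fold change of each list in Model_Swim vs Ctrl (circles) and in Model vs Ctrl_Swim, which uses the other 6 mice (crosses). The lists of neutrophils and of cytokines and chemokines had 9 genes called each, and the acinar list went in opposite directions in both comparisons.

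Interleukin 1 and the chemokines of neutrophil recruitment were higher in the swimmers than in Ctrl. The promoters of Cxcl1 and Cxcl2, which encode closely related neutrophil attractants and lie close together on chromosome 5, are shown because both genes rose together. Each line gives the 250 bases before the RefSeq gene start in GRCm38.p6, on the + strand, at chr5:90890995-90891244 for Cxcl1 and chr5:90903649-90903898 for Cxcl2. Capitals mark matches to GGGNNNTTCC, a form of the NF-kB motif, on either strand.

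Cxcl1: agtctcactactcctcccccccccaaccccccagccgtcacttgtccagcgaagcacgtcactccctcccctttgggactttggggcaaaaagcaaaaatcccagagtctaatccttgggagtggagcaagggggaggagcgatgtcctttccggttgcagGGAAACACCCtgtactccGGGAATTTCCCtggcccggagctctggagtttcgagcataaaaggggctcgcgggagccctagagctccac

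Cxcl2: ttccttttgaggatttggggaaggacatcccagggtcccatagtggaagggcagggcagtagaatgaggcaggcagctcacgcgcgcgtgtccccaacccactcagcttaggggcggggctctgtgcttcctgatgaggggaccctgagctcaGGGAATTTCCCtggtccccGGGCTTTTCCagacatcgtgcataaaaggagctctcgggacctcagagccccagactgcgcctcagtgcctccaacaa

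Such a match occurs in 4.65% of the 32851 RefSeq promoters over the same 250 bases. In Cxcl1, overlapping matches lie between 71 and 61 bases before the start, with a further one at 89 to 80 bases. In Cxcl2, overlapping matches lie between 97 and 87 bases before the start, with a further one at 78 to 69 bases. These are matches of letters and no measurement of binding.

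Il1b (chromosome 2, 129364569 to 129371164), the main interleukin 1 of inflamed gut, stood at 1.38, 0.818 and 0.935 CPM in Ctrl and at 7.71, 15.3 and 21.5 CPM in Model_Swim. All Model_Swim mice were above all Ctrl mice, with a log2 fold change of 3.82 ± 0.54 (SE, adjusted p = 0.00336). Cxcl5, a neutrophil attractant made by epithelium, was at 0.276, 0.327 and 0.22 CPM in Ctrl and 9.08, 48.4 and 35.0 CPM in Model_Swim (6.78 ± 1.20, adjusted p = 0.00666). Model_Swim 1 was the lowest of the swimmers in both genes and still several times above the highest Ctrl mouse. Cxcl1 rose from 0.183 ± 0.139 to 2.72 ± 0.931 CPM (mean ± SD, n = 3; adjusted p = 0.0371), and Cxcl2 from 0.0731 ± 0.0311 to 3.66 ± 3.05 CPM (adjusted p = 0.014). In Ctrl both genes rested on a handful of reads. Tnf, a cytokine of macrophages, rose 6.87-fold, and Il11, a stromal cytokine of the interleukin 6 family, rose 6.12-fold. Il33, an alarmin of stroma and epithelium, rose 2.24-fold (adjusted p = 0.0162). Il1a and Csf3 also passed the test, with 3.28 and 0.938 CPM in Model_Swim and nearly no reads in Ctrl. The other 9 genes of the list tested were not called. Among them Ccl5 and Il18 had log2 fold changes of 0.09 and 0.28, and Cxcl3 had no read in any Ctrl mouse (adjusted p = 0.0696). Of the 9 genes called, 4 stayed called without Ctrl 2, without Ctrl 3 or with the squamous covariate, 6 without Ctrl 1 or Model_Swim 3, and 0 with the trace term. In the other fits that left out 1 mouse, 7 to 9 of them did.

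Neutrophil genes rose with the chemokines, but unevenly among the swimmers. S100a9, a subunit of calprotectin in neutrophil cytosol, was at 0.221, 0.382 and 0.66 CPM in Ctrl and at 2.70, 24.9 and 87.2 CPM in Model_Swim (6.48 ± 1.39, adjusted p = 0.0138). Its partner S100a8 followed the same order of mice, with 1.38, 7.67 and 29.6 CPM in Model_Swim. Csf3r, the receptor for the neutrophil growth factor, rose 3.61-fold (adjusted p = 0.00627) and Il1r2, a decoy receptor for interleukin 1, rose 2.51-fold (adjusted p = 0.0274). Also called were Ltf, Cxcr2, Mmp8, Trem1 and Clec4e, the first of which encodes lactoferrin, also made by glandular epithelium. Among the genes not called were Mmp9, Ngp, Retnlg and Ly6g, the last of which, a defining surface marker, had a log2 fold change of 0.82 (adjusted p = 0.37). The summed level of the 17 listed genes was 21.4 to 35.8 CPM in Ctrl and 68.2, 641 and 452 CPM in Model_Swim 1, 2 and 3, of which Ltf made up 17.3, 547 and 247 CPM. Without Ltf the sum was 20.1 to 35.1 CPM in Ctrl and 50.9, 94.0 and 206 CPM in Model_Swim. Without Ctrl 1, 2 or 3 the count of called genes fell from 9 to 1, 2 and 1. It was 4 without Model_Swim 2, 2 without Model_Swim 3 and 0 with the squamous covariate or the trace term, under which the medians of the list were 2.42 and 3.13.

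Among other leukocytes, the macrophage genes called had close values in the 3 swimmers. Cd68, a lysosomal macrophage protein, was at 11.1, 9.81 and 12.9 CPM in Ctrl and 28.7, 25.2 and 26.7 CPM in Model_Swim (1.25 ± 0.14, adjusted p = 0.00195). Lyz2, the lysozyme of myeloid cells, rose from 161 ± 15.6 to 346 ± 40.1 CPM (adjusted p = 0.00192). Fcgr1, Ccr2 and Trem2 were also called, and 13 of 17 macrophage genes were higher by the adjusted p alone. Ly6c2, of freshly recruited monocytes, was the exception with a lower level (-0.75, adjusted p = 0.0454). Of 20 T cell genes, Cd4, Icos and Ctla4 were called, with 2.65-, 2.24- and 2.51-fold higher levels. The T cell median was 0.83 here, 0.70 in Ctrl_Swim vs Ctrl and 0.045 in Model_Swim vs Ctrl_Swim. The T cell sum was 62.2 to 72.3 CPM in Ctrl and 113 to 137 CPM in Model_Swim. In Ctrl_Swim 2, 3 and 4 it was 71.5, 81.4 and 178 CPM. The mast cell proteases Tpsb2 and Cma1 rose 4.88- and 3.93-fold. In edgeR none of 20 B cell genes was called or passed the adjusted p alone (median 0.34); 4 had an unadjusted p under 0.05, as did 33% of all genes tested, and DESeq2 called 1. Of 13 genes of MHC class II none was called in edgeR (median 0.50), with 3 at an unadjusted p under 0.05 and 0 called by DESeq2. Both lists thus lay below the share of all genes at that p. Still, 12 class II and 17 B cell genes were higher in Model_Swim, against 49.7% of all genes tested. All Model_Swim mice lay above all Ctrl mice in 8 class II and 3 B cell genes, against 22.5% of all genes tested. The class II sum was 1228 to 1391 CPM in Ctrl and 1626 to 2052 CPM in Model_Swim. For B cell genes it was 141 to 199 and 214 to 248 CPM. The macrophage count fell from 5 to 3 without Ctrl 1, Ctrl 2 or Model_Swim 3, to 2 with the squamous covariate and to 0 with the trace term. Without Ctrl 2, Ctrl 3 or any of the 3 Model_Swim mice, 1 T cell gene was called in place of 3, and without Ctrl 2, Model_Swim 2 or Model_Swim 3, 1 mast cell gene in place of 2. With the squamous covariate 1 T cell gene (Cd4) and 0 mast cell genes were called, and with the trace term 0 of either.

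Antimicrobial and oxidase genes of the epithelium split in both directions. Nos2, the inducible nitric oxide synthase, rose 9.46-fold, from 4.19, 3.54 and 5.06 CPM in Ctrl to 24.2, 47.3 and 49.7 CPM in Model_Swim (adjusted p = 0.00607). Lcn2, which withholds iron-carrying siderophores from bacteria, rose 11.3-fold (adjusted p = 0.0105). Duoxa2, the maturation factor of the hydrogen peroxide-forming oxidase, rose 2.48-fold (adjusted p = 0.0102). Retnlb, Ang4 and Itln1 fell and are described with the lower genes. The remaining 15 of 21 genes tested, Reg3b and Reg3g included, were not called. Nos2, Lcn2 and Duoxa2 passed in each fit that left out 1 mouse. With the squamous covariate Lcn2 and Duoxa2 missed the test (adjusted p of 0.0551 and 0.0709), as did Retnlb and Ang4, and with the trace term none of the 6 genes was called. Of the 3 lower genes Retnlb alone stayed called without Ctrl_Swim 3 or without any 1 of the Ctrl or Model_Swim mice.

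**Figure D2:**
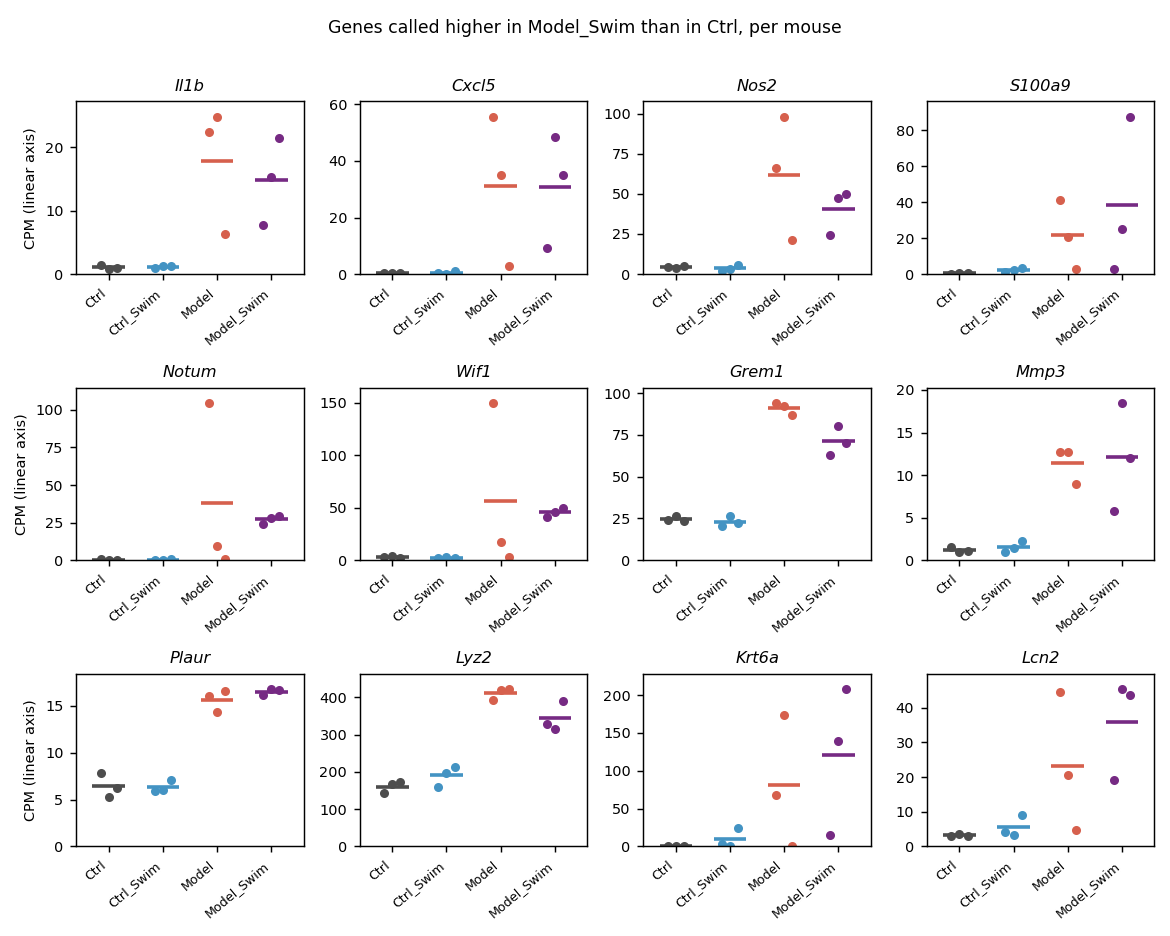
Each panel plots the CPM of 1 gene called higher in Model_Swim than in Ctrl, on a linear axis from 0, with 1 point per mouse and a line at the group mean. Ctrl and Ctrl_Swim mice lie near the bottom of the panels of Il1b, Nos2, Wif1 and Mmp3, the 3 Model_Swim mice lie close together for Notum (24.2 to 29.7 CPM), and the Model mice spread from 0.631 to 104 CPM there.

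Wnt pathway genes that were called were mostly secreted inhibitors and tumour markers, and Notum and Wif1 had close levels in the 3 swimmers. Notum (chromosome 11, 120653788 to 120661193), an enzyme that inactivates Wnt proteins, stood at 0.552, 0.164 and 0.33 CPM in Ctrl and at 24.2, 27.8 and 29.7 CPM in Model_Swim (log2 fold change 6.26, adjusted p = 0.0211). Wif1, which binds Wnt proteins, stood at 2.93, 3.82 and 2.36 CPM in Ctrl and at 40.9, 45.8 and 49.7 CPM in Model_Swim (3.90 ± 1.03, adjusted p = 0.0292). The Model mice did not form such a group, with 104, 9.21 and 0.631 CPM of Notum and 150, 17.2 and 3.44 CPM of Wif1. All 3 Model_Swim mice thus exceeded Model 2 and Model 3 in both genes and fell short of Model 1. Prox1, a transcription factor of intestinal adenomas, rose 6.12-fold, Dkk2 5.21-fold and Apcdd1 6.88-fold, both again encoding Wnt inhibitors. Mmp7, a metalloproteinase of tumour epithelium, rose 12.4-fold (adjusted p = 0.0327). Igfbp4, an IGF-binding protein, rose 2.15-fold (adjusted p = 0.00282). The stem cell genes Lgr5 and Ascl2 and the feedback gene Axin2 had log2 fold changes of 0.70, 0.16 and 0.62 and were not called (adjusted p of 0.465, 0.801 and 0.254).

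The summed level of the 24 Wnt genes was 628 to 649 CPM in Ctrl and 1108 to 1241 CPM in Model_Swim, without overlap. Igfbp4, the gene of the IGF-binding protein, had the highest mean level among them in Ctrl and Model_Swim. The number of calls moved with the mice that entered the fit. Without Ctrl 1, 2 or 3 or Model_Swim 3, 1 gene was called, each time Igfbp4. Without Model_Swim 1 or 2 there were 2, Igfbp4 and Notum. Without Ctrl_Swim 2 or Ctrl_Swim 3 there were 4, and none with the trace term or the squamous covariate. In a fit of only the Ctrl and Model_Swim mice there were 11.

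Stromal genes called in the swimmers encoded matrix enzymes, a matricellular protein and growth factor antagonists, and no collagen was called. The promoters of Mmp3, Mmp10 and Mmp13 are shown because these 3 metalloproteinase genes, all on chromosome 9, rose together. Each line holds the 250 bases before the RefSeq gene start in GRCm38.p6 on the + strand, at chr9:7445572-7445821 for Mmp3, chr9:7502092-7502341 for Mmp10 and chr9:7272264-7272513 for Mmp13. Capitals mark TGANTCA, the AP-1 motif, which has the same form on both strands.

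Mmp3: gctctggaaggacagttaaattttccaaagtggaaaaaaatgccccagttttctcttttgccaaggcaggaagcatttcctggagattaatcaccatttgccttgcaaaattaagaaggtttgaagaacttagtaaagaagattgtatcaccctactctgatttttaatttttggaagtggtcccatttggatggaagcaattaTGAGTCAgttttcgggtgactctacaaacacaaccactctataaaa

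Mmp10: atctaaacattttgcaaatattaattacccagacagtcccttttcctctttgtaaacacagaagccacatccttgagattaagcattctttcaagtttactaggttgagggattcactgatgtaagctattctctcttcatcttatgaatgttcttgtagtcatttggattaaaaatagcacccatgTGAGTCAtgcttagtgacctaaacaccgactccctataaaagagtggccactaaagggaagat

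Mmp13: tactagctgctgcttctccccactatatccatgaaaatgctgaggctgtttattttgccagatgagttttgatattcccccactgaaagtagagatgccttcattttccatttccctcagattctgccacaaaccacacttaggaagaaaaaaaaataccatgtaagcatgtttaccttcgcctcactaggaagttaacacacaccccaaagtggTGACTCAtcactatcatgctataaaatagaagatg

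The motif occurs in 6.75% of all RefSeq promoters over these 250 bases. It lies 46 to 40 bases before the start in Mmp3, 63 to 57 bases in Mmp10 and 35 to 29 bases in Mmp13, and GGGNNNTTCC occurs in none of these windows. As above, this describes the sequence and not its use.

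Mmp3, stromelysin 1, was at 1.60, 0.927 and 1.04 CPM in Ctrl and between 5.83 and 18.4 CPM in Model_Swim (3.34 ± 0.44, adjusted p = 0.00281). Mmp10, stromelysin 2, rose 8.17-fold (adjusted p = 0.00348) and Mmp13, a collagenase, 2.47-fold (adjusted p = 0.0255). Model_Swim 1 was the lowest swimmer for all 3 enzymes, at 6.27 CPM for Mmp10 and 4.73 CPM for Mmp13. Timp1, an inhibitor of these enzymes, rose 2.77-fold. Grem1 (chromosome 2, 113748675 to 113758648), a BMP antagonist of fibroblasts, was at 24.2, 26.2 and 23.2 CPM in Ctrl and 62.9, 80.5 and 69.9 CPM in Model_Swim. Its log2 fold change was 1.54 ± 0.11 (adjusted p = 0.000287), and of the 90 called genes examined singly it alone was called under every alternative, the trace term included (1.84, adjusted p = 0.00896). Igfbp5, an IGF-binding protein of stroma and the most abundant gene called higher, was at 157, 140 and 157 CPM in Ctrl and 331, 427 and 398 CPM in Model_Swim (adjusted p = 0.000335). Per transcript length, Igfbp5 was at 66.5 ± 8.85 FPKM in Model_Swim and Grem1 at 40.4 ± 5.21 FPKM. Lox, a collagen crosslinking enzyme, rose 2.31-fold and Thbs2, a matricellular protein, 2.49-fold. The collagens Col1a1, Col1a2 and Col3a1 were higher by 0.72, 0.63 and 0.47 on the log2 scale, past the adjusted p but under 2-fold, as were Dcn and Lum. Of the 28 genes, 21 were higher by the adjusted p alone and none lower. Across leave-one-out fits 5 to 7 genes were called, 5 with the squamous covariate and 1 with the trace term.

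Genes of the repair epithelium, a state with fetal-like features that covers wounds, were called in both directions, 5 higher and 2 lower, the latter being Gsdmc4 and Gsdmc2, described with the lower genes. Plaur, the urokinase receptor, was at 7.78, 5.29 and 6.27 CPM in Ctrl and 16.1, 16.8 and 16.6 CPM in Model_Swim (1.36 ± 0.14, adjusted p = 0.00192). Ereg, an EGF receptor ligand, rose 3.10-fold (adjusted p = 0.0026). Cldn4, a claudin of stressed epithelium, rose from 29.5 ± 8.13 to 105 ± 3.41 CPM (adjusted p = 0.0229). Sprr1a was called too, but is also made by squamous epithelium. Clu, Anxa1 and Areg were higher by 0.91, 1.47 and 1.04 on the log2 scale and narrowly missed the test (adjusted p of 0.0589, 0.0504 and 0.0504). Without Ctrl 1, 2 or 3 or Model_Swim 2 or 3, and with the squamous covariate, 2 genes of the list were called higher in place of 5, against 8 without Model 3 and 0 with the trace term.

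Squamous keratins were among the largest increases in swimmers. Krt6a, a keratin of stratified epithelium, was at 0.166, 0.273 and 0.495 CPM in Ctrl and 14.9, 139 and 208 CPM in Model_Swim (8.57 ± 2.21, adjusted p = 0.0275), and its near copy Krt6b, with which it may share reads, behaved alike. The summed level of the 20 squamous genes was 142 to 159 CPM in Ctrl and 330, 1470 and 1415 CPM in Model_Swim 1, 2 and 3. It was also high in Ctrl_Swim 4 (1133 CPM), Model 1 (1354 CPM) and Model 2 (2419 CPM), at 248 CPM in Ctrl_Swim 2, and low in Ctrl_Swim 3 and Model 3 (120 and 148 CPM). Skeletal muscle genes, also of tissue near the anus, had a median of 2.81, with sums of 41.0 to 88.3 CPM in Ctrl and 168, 354 and 33.7 CPM in Model_Swim. In edgeR none of its 12 genes was called, 0 had an unadjusted p under 0.05, and DESeq2 called 0, while 3 were called in the fit of only the Ctrl and Model_Swim mice and 2 with the replicate number as a block. No squamous gene stayed called without Ctrl 1, 2 or 3 or without Model_Swim 2 or 3. With the squamous level as a covariate, 105 genes were called over all, 75 higher and 30 lower, and 81 of them were among the 352. Il1b, Nos2, Cxcl5, Mmp3, Mmp10, Plaur, Ereg, Cd68, Lyz2, Grem1 and Igfbp5 were in that set, while Notum, Wif1, S100a9 and Lcn2 were not. The part of squamous tissue in the latter was not tested further. Il1f9, Serpinb11 and Slc26a9, which had no read in any Ctrl mouse, had means of 2.62, 3.88 and 2.25 CPM in Model_Swim, at least 47.7-, 70.6- and 41.0-fold higher against a limit of 3 counts over the Ctrl group. They too were above 0 in Ctrl_Swim 2 and 4 and in Model 1 and 2.

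**Figure D3:**
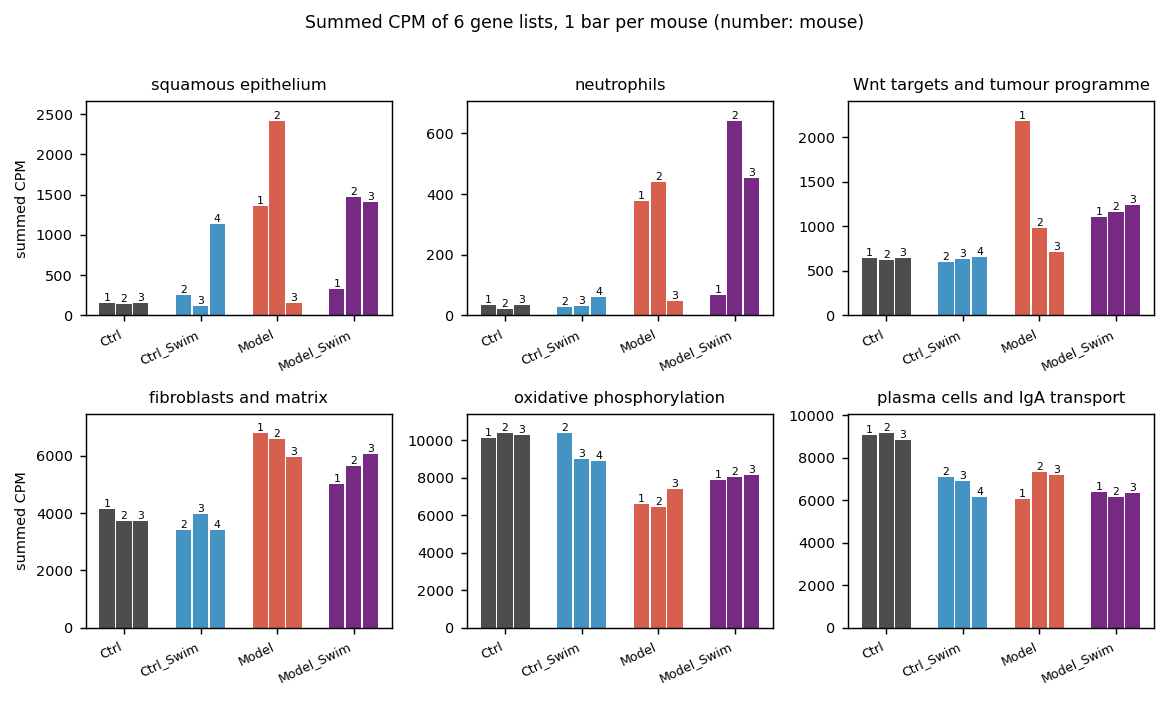
Bars give the summed CPM of the genes of 6 lists, 1 bar per mouse, with the mouse's number above it. The squamous and neutrophil sums vary within Model and within Model_Swim, and the Wnt sum is between 1108 and 1241 CPM in all 3 Model_Swim mice. The sums of oxidative phosphorylation and of plasma cells and IgA transport in Model_Swim lie below those in Ctrl. For the latter list, whose most abundant gene is Pigr of epithelium, the Ctrl_Swim sums also lie below those in Ctrl.

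A few further genes were called in lists that had few called genes. The medians of these lists were 0.91 for adipocytes, 0.73 for complement and 0.73 for immediate early genes. They were 0.18 for iron, 0.18 for interferon-induced, 0.04 for fatty acid synthesis and -0.02 for claudin genes. For goblet cell, heat shock and colonocyte absorption genes they were -0.33, -0.10 and -0.02. Steap4, an iron reductase induced by inflammation, rose 3.83-fold and Hmox1, which breaks down haem, rose 2.03-fold, among 16 iron genes. The early response genes Egr1 and Dusp1 rose 2.50- and 2.08-fold. Scd1, a fatty acid desaturase, rose 4.33-fold, and Slc36a2, an amino acid transporter of fat tissue, rose 5.92-fold. The interferon-induced chemokines Cxcl9 and Cxcl10 rose 3.09- and 2.41-fold, while 27 of 29 interferon-induced genes were not called. C2, a complement component, rose 2.25-fold, and 8 of 15 complement genes were higher by the adjusted p alone. Muc1, a membrane mucin, rose 4.36-fold, Cldn1 6.93-fold, the heat shock gene Hspa1b 2.39-fold and the chloride channel regulator Clca4b 7.45-fold. Of these, Steap4, Slc36a2, C2, Egr1 and Muc1 remained called in each fit that left out 1 mouse. With the squamous covariate, Steap4 and Slc36a2 were the only genes of this paragraph still called, and with the trace term none was.

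The genes called lower formed a set of another kind, led by products of goblet, deep crypt and surface cells, and several of them were also low in mice that swam without AOM/DSS. Gsdmc4 (chromosome 15, 63891140 to 63912319), a gasdermin of colon epithelium, was at 4344, 3194 and 3479 CPM in Ctrl and 1111, 783 and 691 CPM in Model_Swim, a 4.26-fold lower mean (adjusted p = 0.00336). In Ctrl_Swim it was at 2155, 1023 and 1188 CPM. Gsdmc2 and Gsdmc3 were 4.14- and 5.13-fold lower, and reads may be divided among these near-identical neighbours on chromosome 15. Per transcript length Gsdmc4 fell from 902 to 227 FPKM. Retnlb, a goblet cell protein that binds bacteria, was at 2447, 1896 and 1655 CPM in Ctrl and 575, 404 and 178 CPM in Model_Swim (-2.37 ± 0.49, adjusted p = 0.0122). In Ctrl_Swim it was at 497, 310 and 256 CPM. Ang4, an antimicrobial ribonuclease of a multigene family, was 3.70-fold lower in Model_Swim (adjusted p = 0.0435), and it too was at 477, 253 and 211 CPM in Ctrl_Swim. Itln1, a lectin of goblet cells, was 2.99-fold lower (adjusted p = 0.0497). Pla2g4c, a cytosolic phospholipase A2, was at 1319, 479 and 776 CPM in Ctrl, between 9.97 and 55.5 CPM in Model_Swim and between 39.8 and 43.9 CPM in Ctrl_Swim. Reg4 and Spink4, secreted proteins of goblet and deep crypt cells, were 3.25- and 2.49-fold lower. In all of these the Ctrl mice stood above the other 9 mice.

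**Figure D4:**
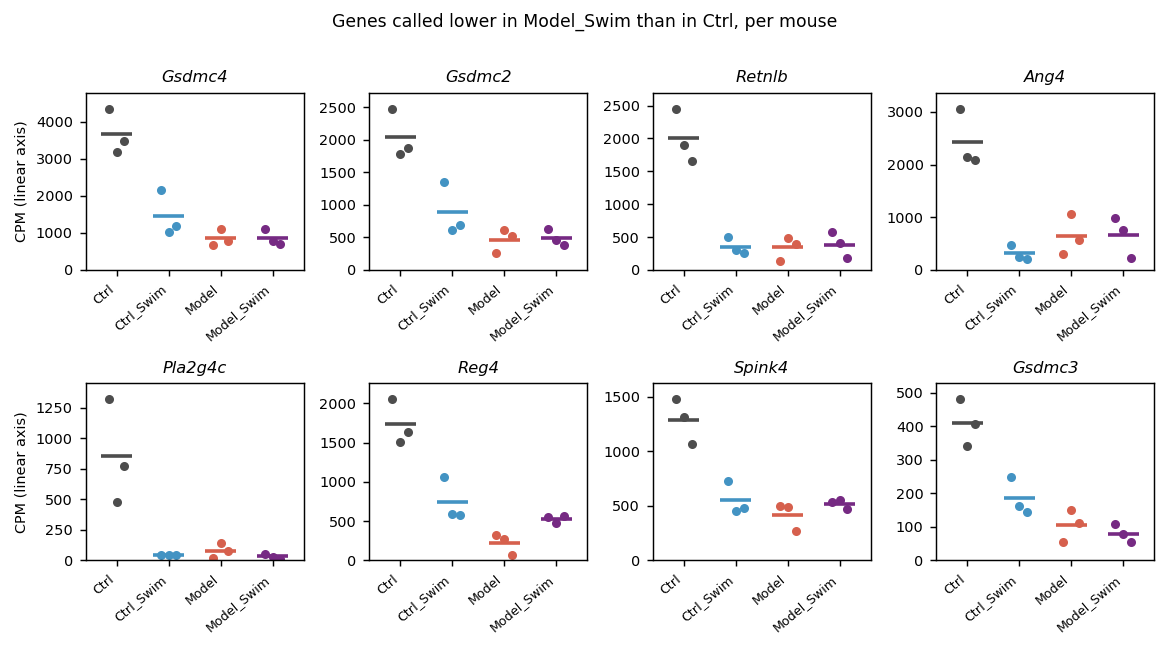
Each panel plots the CPM of 1 gene called lower in Model_Swim than in Ctrl, on a linear axis from 0, with 1 point per mouse and a line at the group mean. The Ctrl mice are highest in every panel, and for Retnlb, Ang4 and Pla2g4c the Ctrl_Swim, Model and Model_Swim mice lie in 1 low range.

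The other comparisons differ between the higher and the lower genes. Model_Swim vs Ctrl_Swim, which shares the Model_Swim mice, compares AOM/DSS with no AOM/DSS among swimmers. There, 143 genes were called higher (0.924%) and 12 lower (0.0775%). The median log2 fold change of the 301 higher genes in it was 1.35, and that of the 51 lower genes was -0.48. In Ctrl_Swim vs Ctrl, which shares the Ctrl mice, the medians were 0.45 and -1.10. Both comparisons reuse mice by which the 301 and 51 genes were chosen, so that part of these medians is built in. For Retnlb the log2 fold change was -2.50 in Ctrl_Swim vs Ctrl and 0.12 in Model_Swim vs Ctrl_Swim (adjusted p of 0.0465 and 0.908), for Pla2g4c -4.34 and -0.42 (0.0348 and 0.771), and for Spink4 -1.21 and -0.10 (0.0465 and 0.843). For Il1b it was 0.13 and 3.69 (0.928 and 0.00609), and for Grem1 -0.10 and 1.63 (0.67 and 0.000161). In Ctrl_Swim vs Ctrl, all Ctrl libraries and Ctrl_Swim 3 lie on the high side of the trace division, and Ctrl_Swim 2 and 4 on the low side. Swimming and that division thus coincide there in part, and the share of each was not tested.

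A comparison that shares no mouse with Model_Swim vs Ctrl is Model vs Ctrl_Swim, in which 437 genes were called higher (2.82%) and 248 lower (1.6%). Of the 301 higher genes, 293 had the same direction there (97.3%, against 52.2% of all genes tested), 163 were called (54.2%) and the median log2 fold change was 1.54. Of the 51 lower genes, 32 had the same direction (62.7%, against 47.8%), 10 were called and 2, Aldh1l2 and Sycn, were called higher (1.30 and 1.31; adjusted p of 0.00862 and 0.0425), with a median of -0.30 over the 51. Both were singled out after their values were seen, and Sycn is one of the genes of pancreatic acinar cells. Grem1 (1.99, adjusted p = 2.08e-05), Il1b (3.95, adjusted p = 0.00128), Nos2 (4.04, adjusted p = 0.00137), Plaur (1.31, adjusted p = 0.000507) and Mmp10 (4.35, adjusted p = 0.000458) were among those called again. Of the lower genes, Reg4 was called again (-1.76, adjusted p = 0.0168), while Retnlb (-0.05) and Spink4 (-0.41) were not. In Model vs Ctrl, which shares the Ctrl mice, 961 genes were called higher (6.21%) and 189 lower (1.22%).

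Model_Swim could also be compared with Ctrl_Swim 2 and 4 alone, which lie on the same side of the trace division. In this comparison of 3 with 2 mice, chosen after the division was seen, 50 genes were called higher (0.318%) and 2 lower (0.0127%), Cys1 and Pcdh17, both named after their values were seen (-1.14 and -1.17; adjusted p of 0.0444 and 0.0316). Grem1 (1.74, adjusted p = 0.000454), Plaur (1.34, 0.0154), Mmp10 (4.04, 0.017), Cd68 (1.12, 0.017), Dusp1 (1.21, 0.017), Ereg (1.42, 0.0265) and Il1b (3.73, 0.0311) passed. The log2 fold changes of Notum and Wif1 were 6.39 and 4.25 but did not pass (adjusted p of 0.116 and 0.124). Retnlb, at 0.03, and Spink4, at -0.23, stood near 0.

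Whether AOM/DSS acted differently in swimmers was tested by the interaction of swimming with AOM/DSS. In edgeR no gene of the 352 reached an adjusted p of 0.05, and the lowest over all genes was 0.0547. For 79 of them the unadjusted value was below 0.05, a share near the 19% of all genes tested. The interaction in DESeq2 found 21 genes. The directions were less even. Of the 301 higher genes, 56 had an interaction above 0 (18.6%, against 50% of all genes tested), with a median of -0.56. Of the 51 lower genes, 7 had one below 0 (13.7%, against 50%), with a median of 1.04. The interaction draws on the mice by which these genes were chosen, and how far this shaped the medians was not tested. In Model_Swim vs Model, which shares the Model_Swim mice, the medians over the 301 and 51 genes were -0.11 and -0.18.

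Small differences in 1 direction ran through the lists of mitochondrial respiration and cell division. All 22 genes of oxidative phosphorylation had log2 fold changes below 0 in Model_Swim vs Ctrl (median -0.38), and 19 of them fell by the adjusted p alone. None changed by 2-fold, so that edgeR and DESeq2 called 0 of them, while 21 had an unadjusted p under 0.05. Atp5b, a subunit of ATP synthase, fell from 2193, 2224 and 2210 CPM in Ctrl to 1697, 1722 and 1746 CPM in Model_Swim (adjusted p = 0.0111). The summed level was 10141 to 10366 CPM in Ctrl and 7880 to 8135 CPM in Model_Swim. All 24 genes of proliferation were on the lower side too, with a median of -0.41, 9 past the adjusted p, among them Tyms and Mcm5, and 20 past the unadjusted p. In Model vs Ctrl_Swim, which shares no mouse, the list medians were -0.48 and 0.30, so that the second did not go the same way. In Ctrl_Swim vs Ctrl the list medians were -0.11 and -0.43, and in Model_Swim vs Ctrl_Swim -0.26 and -0.0025. Ctrl_Swim vs Ctrl shares the Ctrl mice with Model_Swim vs Ctrl, so that its proliferation median is no separate result. In Model vs Ctrl, which shares them too, the list medians were -0.60 and -0.20. Cdx1, an intestinal fate factor, fell by 0.50 on the log2 scale (adjusted p = 0.00448), and Cd24a, an epithelial surface protein, by 0.53 (adjusted p = 0.00732). Of 12 genes of plasma cells and IgA transport, Fkbp11 was called lower (2.07-fold). This call was lost without Ctrl 1, Model_Swim 2 or Model_Swim 3, and with the squamous covariate or the trace term. It was also lost with both untreated groups as reference and in the 3 limma fits. Pigr, the IgA transporter of epithelium and the most abundant gene of this list, was 0.62 lower on the log2 scale. The median of the list was -0.45 in Model_Swim vs Ctrl and -0.43 in Ctrl_Swim vs Ctrl, which shares the Ctrl mice. It was 0.15 in Model_Swim vs Ctrl_Swim.

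Some lists had a median near 0 in the swimmers. Among 33 colonocyte absorption genes, 34 detoxification enzymes and 19 clock genes, the medians were -0.02, -0.04 and 0.08, with 1, 0 and 0 genes called in edgeR and 1, 1 and 0 in DESeq2. At an unadjusted p under 0.05 in edgeR there were 8 detoxification and 5 clock genes, in both lists a share below the 33% of all genes. In Model vs Ctrl_Swim, 9 clock genes were called lower and 3 higher, and 6 detoxification enzymes were called lower. In edgeR none of 19 prostanoid genes was called, 4 had an unadjusted p under 0.05 (a share below the 33% of all genes), and DESeq2 called 0. Ptges, the inducible prostaglandin E synthase, was at 13.7 ± 0.865 CPM in Model_Swim and 7.56 ± 1.60 in Ctrl, past the adjusted p (0.0139) but under 2-fold. Ptgs2, which encodes COX-2, was at 10.2, 10.6 and 10.2 CPM in Model_Swim and 6.40, 9.54 and 5.88 CPM in Ctrl (0.51 ± 0.26, adjusted p = 0.21). The prostaglandin E receptor gene Ptger2 and the phospholipase gene Pla2g4f had log2 fold changes of 0.38 and 0.63 (adjusted p of 0.287 and 0.357). Tfrc, the transferrin receptor, fell by 0.75 on the log2 scale (adjusted p = 0.00741) and Cldn15, a pore-forming claudin, by 0.73 (adjusted p = 0.015), both without overlap between the groups. The Wnt receptor gene Fzd9 had a log2 fold change of -0.90 (adjusted p = 0.154).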

How the data were processed

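Per the labels and the study's methods, RNA of mouse colorectal tissue was made into TruSeq Stranded mRNA libraries. The authors trimmed the reads, placed them on GRCm38.p6 by HISAT2 and summed them per gene by HTSeq-count. Tool versions and the counting strand are not given in the sources used here. They deposited raw counts and Cufflinks FPKM values for 18514 genes. Gene positions and promoters came from RefSeq GRCm38.p6, in which 17577 of the symbols were found.

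The count table was tested with edgeR 4.0.16 (R 4.3.3). After TMM scaling and filterByExpr (minimum count 10), all 4 groups entered 1 quasi-likelihood model, from which each comparison was drawn, with Benjamini-Hochberg adjustment over all genes tested. CPM values are TMM-scaled. Alternatives used DESeq2 1.42.0 and limma 3.58.1, the latter on log2 FPKM. Adjusted p-values rest on a spread between mice estimated over all 4 groups, with 3 mice a group. The spread among the Model and Ctrl_Swim mice thus enters the p-values of Model_Swim vs Ctrl. A count of 3, the limit that a count of 0 allows, is at most 0.174 CPM and covers counting error only. Lists are described by counts and medians, without a set test.

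The lists, the comparison and the rule for naming genes were chosen with earlier results of these data known. The text names, per list, up to 3 called genes with the lowest adjusted p, the 8 largest increases and 8 largest decreases, the 5 most abundant called genes each way, and genes the study names; further list members were named after their values were seen, and a few genes that the rule selects are not reported here. On simulated data for Model_Swim vs Ctrl (14889 genes, 200 of them changed 4-fold), edgeR recovered 191 with 7 other genes called.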

Additional observations from a re-analysis of the deposited data

How the results depend on the processing

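All 352 called genes kept their direction with the replicate block and with the squamous covariate, and 344 with the trace term. The counts moved far more. Against 352 genes (301 higher, 51 lower), DESeq2 called 592 (507 and 85), the fit of only the Ctrl and Model_Swim mice 665 (558 and 107), the squamous covariate 105 (75 and 30), the trace term 2 (2 and 0), limma on log2(FPKM + 1) 125 (101 and 24) and without a filter 103 (84 and 19), and the adjusted p alone 2340 (1112 and 1228). Lower genes were 31 with limma on log2(FPKM + 0.1) and 23 with both untreated groups as reference. Of 78 list members called, the numbers were 132 in the fit of both groups, 1 with the trace term, 25 with the squamous covariate, 49 and 40 with limma with and without a filter, and 195 by the adjusted p alone. Members called in Model vs Ctrl_Swim, 175 in the fit reported, were 33 with the trace term and 79 and 74 with limma with and without a filter. Leaving out 1 mouse gave 119 to 527 called genes (99 to 463 higher, 20 to 64 lower), with 34 to 98 list members, 99 (without Ctrl_Swim 2) to 204 members in Model vs Ctrl_Swim, and 0 to 7 genes in the interaction. The total was 169, 132 and 147 without Ctrl 1, 2 and 3, 167 without Model_Swim 2, and 119 without Model_Swim 3. The interaction found 21 genes with DESeq2. The cause of these shifts was not tested, other than that fewer samples entered.

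The replicate numbers do not pair the mice: the deviations of Ctrl and Model_Swim mice of the same number correlated at -0.03, -0.11 and 0.06. With the number as a replicate block, 302 genes were called (263 higher, 39 lower), 245 of them among the 352. With the trace term, the log2 fold changes of Sprr2d, Sprr1a, Dsg3 and Fzd9 turned to -0.68, -0.13, -1.90 and 0.20, and with the squamous covariate that of Pla2g4f turned to -0.15. Of 90 called genes examined singly, 1 was called under every alternative and 26 with the squamous covariate. Genes with few reads in Ctrl, such as Csf3 and Mmp8, are limited by depth.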
